A study of Mus musculus with 4 samples.

Results

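The genes described are 10 feedback targets of canonical WNT signalling, chosen by name as Axin2, Lef1, Tcf7, Sp5, Nkd1, Dkk1, Rnf43, Znrf3, Notum and Lgr5. All 10 were found among the 24015 gene symbols in the count files, and all 10 passed the low-count filter that left 14259 genes. RNA came from mouse embryoid bodies, the floating aggregates in which embryonic stem (ES) cells differentiate, and it was sequenced for 2 Trim33-deficient and 2 Control libraries, each group with replicates 1 and 2. The ES cell lines, of outbred strain and at passages 8 to 10, were made from embryos homozygous for the Trim33-flox allele and carrying UbcCreERT2, a Cre recombinase under the ubiquitin C promoter that 4OH-Tamoxifen switches on. They were kept without feeder cells in LIF and 2i before aggregation. In Trim33-deficient bodies deletion of the gene was induced by 4OH-Tamoxifen given on day 4, and bodies of both groups were collected on day 7. Control bodies are labelled wild type, although the description of the lines is the same for both groups, so the labels leave unsettled which alleles they had and whether they saw the drug. The 2i supplement used before differentiation includes an inhibitor of GSK3, which itself activates WNT signalling.

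In canonical WNT signalling, a secreted WNT ligand binds a Frizzled receptor with LRP5 or LRP6, the complex that destroys beta-catenin is held off, and beta-catenin enters the nucleus to act with TCF and LEF factors. Many of the genes it then switches on act back on the pathway: most dampen it, at the ligand, the receptor, the destruction complex or the DNA, so their RNA levels are widely read as a measure of pathway activity. In the gastrulating embryo and in embryoid bodies the pathway drives formation of the primitive streak and of posterior mesoderm.

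The 4 libraries held 10422738 to 13808837 counts in genes. Control replicate 1 stood apart from the rest: its Pearson correlations across genes with the other libraries were 0.932 to 0.952, against 0.967 to 0.978 between pairs of the other 3. These are correlations over genes, which are no independent replicates, and they serve as a description. Trim33, the targeted gene, was at 43.8 and 42.3 CPM (counts scaled to library size, normalised by TMM) in Trim33-deficient replicates 1 and 2, against 93.0 and 109 CPM in Control replicates 1 and 2. Its log2 fold change, Trim33-deficient over Control, was −1.23 (SE 0.13), with an edgeR quasi-likelihood adjusted p of 0.219 and a DESeq2 adjusted p of 6.9e-06. The fitted level was 42.6% of that in Control, so Trim33 RNA remained. Whether the deletion was complete was not tested. With 2 libraries a group, an exact permutation test of a single value cannot go below p = 0.333, so the tests rest on spread shared across genes. The labels call the 2 pairs independent without saying whether they differ by cell line, culture or preparation, so what kind of spread the p-values measure is not known in full.

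None of the 10 genes passed the test. Their edgeR quasi-likelihood adjusted p, over all genes tested, lay between 0.523 and 0.985, and DESeq2 gave 0.349 to 0.999. Across all genes edgeR called 0.014% lower and 0% higher, and DESeq2 0.702% lower and 0.143% higher. At an unadjusted p under 0.05, edgeR gave 1 of the 10 lower (Nkd1) and 1 higher (Lef1), where it gave 4.78% of all genes lower and 3.06% higher, or 7.84% in either direction. The authors' deposited table of 84 genes with an adjusted p of at most 0.0496 lists 0 of the 10. By fitted value, 9 of the 10 lay below 0 and 1, Lef1, above it. That compares with 50.2% of all genes below 0. The 10 genes were chosen with earlier results of these data known. Their values come from the same libraries, so they are not 10 independent outcomes. The median log2 fold change of the 10 was −0.27, against −0.0014 for all genes tested. Bulk RNA of this kind cannot tell fewer cells of a type from less RNA per cell.

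Both groups were fully apart for 3 of the 10 genes. Nkd1 and Notum were lower in both Trim33-deficient libraries than in both Control libraries, a pattern held by 21.4% of all genes, and Lef1 was higher in both, as were 19.3% of all genes. For Notum the gap was small and on few counts. Control replicate 2 was at 6.35 CPM (65 counts) and Trim33-deficient replicate 1 at 5.77 CPM (80 counts). Compared within replicate numbers, 6 of the 10 were lower in the Trim33-deficient library at both numbers, namely Axin2, Tcf7, Sp5, Nkd1, Znrf3 and Notum, where 29.8% of all genes were. Lef1 was higher at both numbers, where 30.3% of all genes were. Dkk1, Rnf43 and Lgr5 disagreed in direction, higher at number 1 and lower at number 2. The lowest level among the 4 libraries fell in Trim33-deficient replicate 2 for 8 of the 10 genes, where it did for 28.9% of all genes. The highest fell in Control replicate 1 for 6 of the 10 and for 31.7% of all genes.

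**Figure D1:**
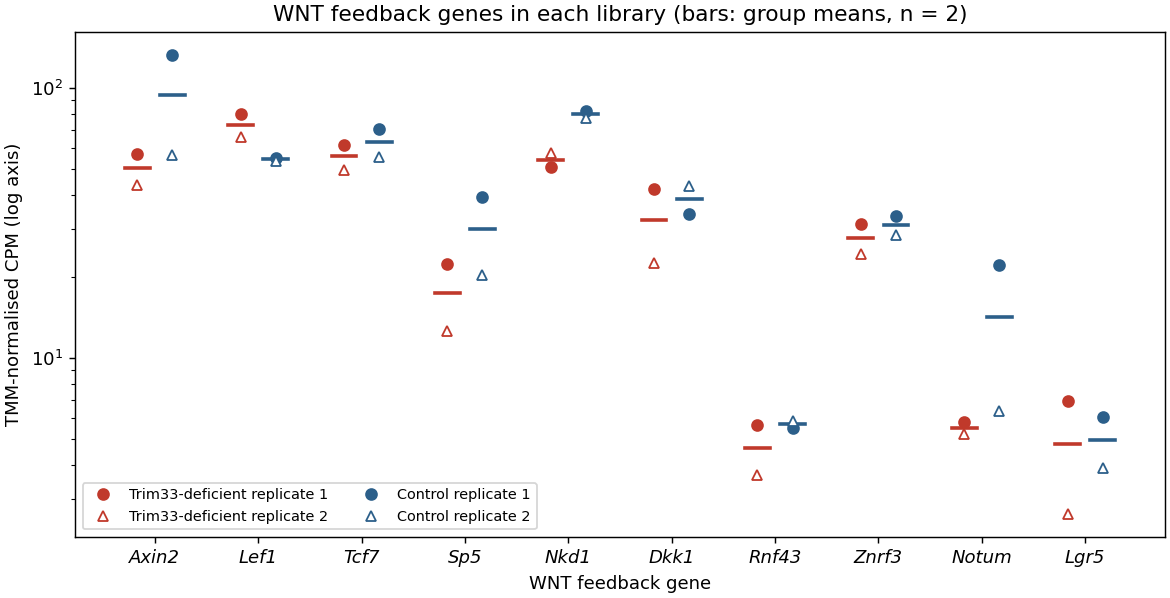
Levels of the 10 WNT feedback genes in TMM-normalised CPM on a log axis. Points are single libraries (filled circles replicate 1, open triangles replicate 2), bars are group means, and red Trim33-deficient values stand left of blue Control values. The filled blue points of Axin2 (132 CPM), Sp5 (39.6 CPM) and Notum (22.0 CPM) sit apart from their other 3 libraries. The pairs of points of Nkd1, Notum and Lef1 do not overlap between groups.

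Axin2 encodes a scaffold of the destruction complex and is the target most often used as a readout of the pathway. It was at 57.0 and 43.6 CPM in Trim33-deficient replicates 1 and 2 (791 and 511 counts), against 132 and 56.2 CPM in Control replicates 1 and 2 (1709 and 575 counts). Control replicate 1 was high and the other 3 libraries lay close together, with Trim33-deficient replicate 1 slightly above Control replicate 2, so the groups overlapped. The group levels were 50.3 ± 9.48 CPM in Trim33-deficient and 94.1 ± 53.7 CPM in Control bodies (SD, n = 2 each). The fitted log2 fold change was −0.90 (SE 0.43), with a 95% interval of −2.04 to 0.24 and an edgeR quasi-likelihood adjusted p of 0.664. Within replicate number 1 the log2 difference was −1.21 and within number 2 it was −0.36. Without Control replicate 1 the log2 fold change was −0.16, and without Control replicate 2 it was −1.38. Of the fits run, Axin2 passed in 1, DESeq2 without Control replicate 2, with a DESeq2 adjusted p of 0.000484. That fit called 2.02% of all genes lower and 2.76% higher, and edgeR gave Axin2 an adjusted p of 0.0539 for the same 3 libraries.

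Nkd1 encodes a cytoplasmic antagonist that binds Dishevelled, the relay between receptor and destruction complex. Its levels were 50.7 and 57.1 CPM in Trim33-deficient replicates 1 and 2, against 82.1 and 77.5 CPM in Control replicates 1 and 2. The gap between the groups was wider than the spread within either of them. Means were 53.9 ± 4.55 CPM in Trim33-deficient and 79.8 ± 3.20 CPM in Control bodies (SD, n = 2 each), and the fitted level was 67.6% of that in Control. The log2 fold change was −0.57 (SE 0.13), the 95% interval from −0.89 to −0.24, and the edgeR quasi-likelihood adjusted p 0.523. This was the smallest adjusted p of the 10 genes by edgeR and by DESeq2 (DESeq2 adjusted p = 0.349). Among the 9 genes with a fitted value below 0, Nkd1 also moved least when libraries were left out. The log2 difference was −0.69 within number 1 and −0.44 within number 2, and the fitted value stayed between −0.65 and −0.48 with each library left out.

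Notum encodes a secreted enzyme that strips the lipid from WNT ligands. Notum was at 5.77 and 5.21 CPM in Trim33-deficient replicates 1 and 2 (80 and 61 counts), against 22.0 and 6.35 CPM in Control replicates 1 and 2 (285 and 65 counts). The Control libraries differed from each other by 3.47-fold, whereas Control replicate 2 lay just above both Trim33-deficient ones. The log2 fold change of −1.37 (SE 0.63) was the lowest of the 10 and also the least precise, with a 95% interval of −3.02 to 0.28 and an edgeR quasi-likelihood adjusted p of 0.664. The log2 difference was −1.90 within number 1 and −0.28 within number 2. Without Control replicate 1 the log2 fold change was −0.21, while DESeq2 without Control replicate 2 gave −1.99 with an adjusted p of 0.00562, the same fit that called Axin2. GENCODE M21 (GRCm38) annotates antisense transcripts over exons of Notum, Lef1 and Axin2, and as no strand setting is given in the sources used here, their reads cannot be told apart.

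Sp5 encodes a zinc finger repressor that competes at WNT-responsive promoters. Sp5 levels were 22.4 and 12.6 CPM in Trim33-deficient replicates 1 and 2, against 39.6 and 20.2 CPM in Control replicates 1 and 2. Replicate 1 was the higher in both groups, by 1.78-fold in Trim33-deficient and 1.96-fold in Control bodies, and the groups overlapped. Compared within numbers the 2 differences were close, −0.82 and −0.68 on the log2 scale. The unpaired log2 fold change was −0.78 (SE 0.44, 95% interval −1.94 to 0.39, edgeR quasi-likelihood adjusted p = 0.685). With the replicate number as a block it was −0.76, the standard error was 0.18 and the edgeR adjusted p was 0.298, which does not pass either.

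Lef1 encodes one of the DNA-binding partners of beta-catenin and was the single gene of the 10 with a higher fitted value. It was at 80.1 and 66.0 CPM in Trim33-deficient replicates 1 and 2, against 54.9 and 53.8 CPM in Control replicates 1 and 2. The Control libraries were nearly level, 1.02-fold apart, and both Trim33-deficient libraries lay above them. The means were 73.1 ± 9.98 CPM in Trim33-deficient and 54.3 ± 0.747 CPM in Control bodies (SD, n = 2 each). The log2 fold change of 0.43 (SE 0.14, 95% interval 0.05 to 0.80) had an edgeR quasi-likelihood adjusted p of 0.609. Leaving out Trim33-deficient replicate 1 gave 0.29, the smallest of the leave-out values, and leaving out Trim33-deficient replicate 2 gave 0.56, the highest. Tcf7, which encodes TCF1, a second factor of the same family, went with Axin2 in sign and not with Lef1. Tcf7 was at 61.7 and 49.8 CPM in Trim33-deficient replicates 1 and 2, against 70.2 and 55.6 CPM in Control replicates 1 and 2, with overlapping groups. Its log2 fold change was −0.17 (SE 0.19, 95% interval −0.66 to 0.31), and the differences within numbers were −0.19 and −0.16.

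**Figure D2:**
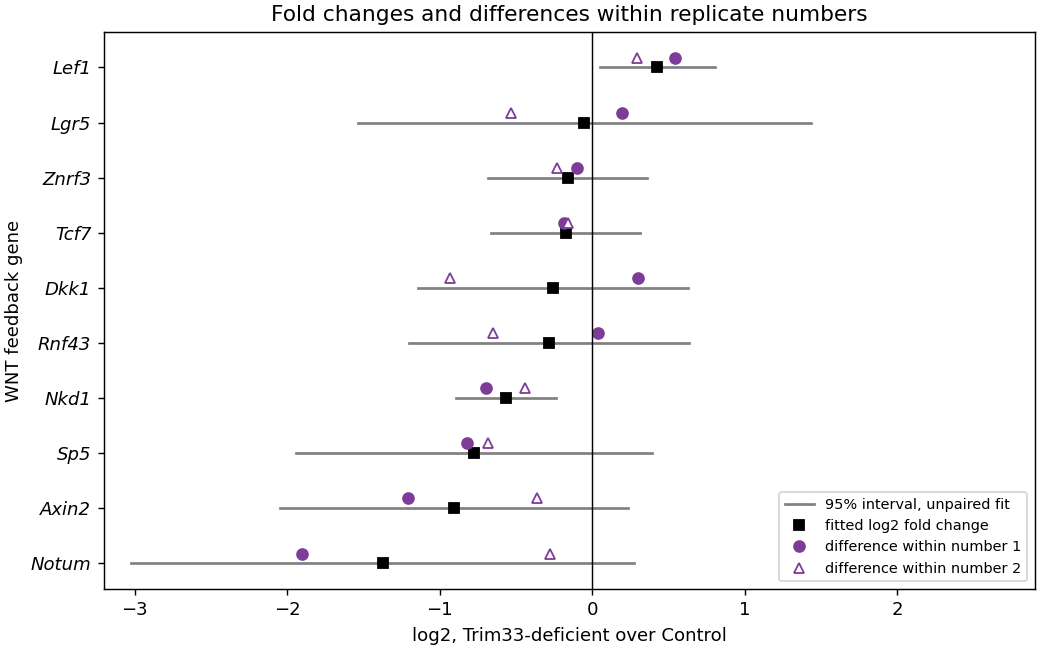
Log2 differences, Trim33-deficient over Control, of the 10 WNT feedback genes. Black squares with grey lines are fitted fold changes with 95% intervals of the unpaired edgeR fit, and purple symbols are the differences within replicate numbers 1 (circles) and 2 (triangles). The intervals of Lef1 and Nkd1 leave out 0, the purple symbols of Sp5 and Tcf7 nearly coincide, and those of Dkk1 (0.30 and −0.94) lie on opposite sides of 0.

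Among the membrane and receptor genes, Znrf3 and Rnf43 encode paired ubiquitin ligases that remove Frizzled receptors from the cell surface. Znrf3 levels were 31.2 and 24.3 CPM in Trim33-deficient replicates 1 and 2, against 33.5 and 28.5 CPM in Control replicates 1 and 2. The groups overlapped, and the log2 fold change was −0.16 (SE 0.20, 95% interval −0.68 to 0.36). Rnf43 was at 5.63 and 3.67 CPM in Trim33-deficient replicates 1 and 2, against 5.49 and 5.86 CPM in Control replicates 1 and 2. Trim33-deficient replicate 2, with 43 counts, was low and the other 3 libraries were level, and the log2 fold change was −0.28 (SE 0.35) with that library and −0.01 without it.

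Lgr5 encodes a receptor for R-spondins, the ligands that take RNF43 and ZNRF3 off the membrane, and marks many adult stem cells. Lgr5 was at 6.92 and 2.65 CPM in Trim33-deficient replicates 1 and 2, against 6.03 and 3.91 CPM in Control replicates 1 and 2. Both replicate 1 libraries were high and both replicate 2 libraries low. Its log2 fold change of −0.05 had a 95% interval of −1.54 to 1.43, wide enough to hold a 2-fold difference in either direction. The lowest library rested on 31 counts, for which the exact Poisson 95% interval is 21.1 to 44.0 counts and covers counting error only. The sign turned to 0.30 without Control replicate 1 and to 0.48 without Trim33-deficient replicate 2.

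Dkk1 encodes a secreted antagonist that blocks LRP5 and LRP6. It was at 42.0 and 22.5 CPM in Trim33-deficient replicates 1 and 2, against 34.1 and 43.3 CPM in Control replicates 1 and 2. Trim33-deficient replicate 2 was low and the other 3 libraries lay together. The log2 fold change was −0.26 (SE 0.34, 95% interval −1.14 to 0.63), with differences of 0.30 within number 1 and −0.94 within number 2. Without Trim33-deficient replicate 2 it was 0.13.

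**Figure D3:**
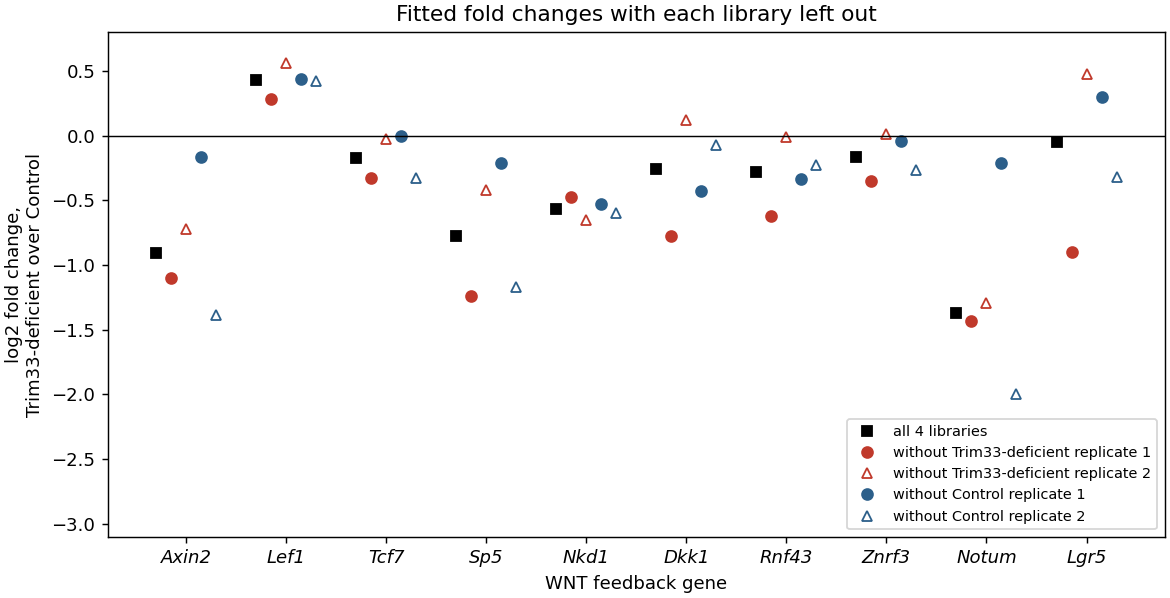
Fitted log2 fold changes, Trim33-deficient over Control, of the 10 WNT feedback genes with all 4 libraries (black squares) and with each library left out in turn (red without a Trim33-deficient library, blue without a Control library, filled circles replicate 1, open triangles replicate 2). Nkd1 (−0.65 to −0.48) and Lef1 (0.29 to 0.56) kept their side of 0 in a narrow band, whereas Axin2, Sp5 and Notum moved towards 0 without Control replicate 1.

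Per kilobase of exon, the levels of the 10 genes spanned a wide range. Exon lengths were taken from GENCODE M21 on GRCm38, not from the gene models behind the counts, so this scale is approximate. In Trim33-deficient bodies the order by mean CPM per kilobase was Tcf7 at 21.2, Lef1 at 20.8, Dkk1 at 13.3, Axin2 and Nkd1 at 11.8 each, Sp5 at 8.31, Znrf3 at 3.51, Notum at 2.44, and Rnf43 and Lgr5 at 1.02 each. Control bodies gave 24.0 for Tcf7, 22.1 for Axin2, 17.5 for Nkd1, 15.9 for Dkk1, 15.5 for Lef1, 14.2 for Sp5, 6.30 for Notum, 3.93 for Znrf3, 1.25 for Rnf43 and 1.05 for Lgr5. By group mean, Lef1 stood next to Tcf7 at the top in Trim33-deficient bodies, and Axin2 stood there in Control bodies. The place of Axin2 rested on Control replicate 1, where it was the highest of the 10 genes. In Control replicate 2 Axin2 was at 13.2, below Tcf7, Dkk1, Nkd1 and Lef1, the last of these at 15.3. Over the 4 libraries the ranges of Rnf43 (0.809 to 1.29) and Lgr5 (0.562 to 1.47) overlapped, and all values of Znrf3 (3.07 to 4.25) lay above both. Compared library by library, neighbours in the order by mean over all 4 libraries kept their order in every library for Tcf7 over Lef1, Sp5 over Notum and Znrf3 over Rnf43. Tcf7 and Lef1 were nearly level in both Trim33-deficient libraries, at 23.5 and 19.0 for Tcf7 against 22.9 and 18.8 for Lef1. The other neighbours changed places in at least 1 library.

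Axin2, Sp5 and Notum shared a high level in Control replicate 1. For these 3 of the 10 genes that library was more than 1.5-fold above each of the other 3 libraries, as it was for 7.39% of all genes tested. Measured by Euclidean distance between log2 CPM centred over the 4 libraries, Sp5 was the member nearest to Axin2 (0.366), followed by Notum (0.516), and Lef1 was the farthest (1.48). The 5 genes outside the members nearest to Axin2 on this scale were Vill (0.0814), Slc44a3 (0.0980), Wnt10b (0.113), Als2cl and Trpm6 (0.128). Wnt10b, itself a WNT ligand gene, was at 3.82 and 2.99 CPM in Trim33-deficient replicates 1 and 2, against 8.58 and 3.52 CPM in Control replicates 1 and 2. With 4 libraries, many genes can lie this close, and the distances are a description.

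Summed markers of neuroectoderm and of pluripotent cells were also highest in the same library, while other marker lists were not. The summed level of 10 neuroectoderm markers was 310.5 and 280.1 CPM in Trim33-deficient replicates 1 and 2, against 672 and 284 CPM in Control replicates 1 and 2, and 9 of the 10 were highest in Control replicate 1. For 10 pluripotency markers the sums were 275 and 276 CPM in Trim33-deficient replicates 1 and 2, against 515 and 326 CPM in Control replicates 1 and 2. Of these, 7 of the 10 were highest in Control replicate 1. DESeq2 called 1 of the 10, Tfcp2l1, lower (DESeq2 adjusted p = 0.0223), against 0.702% of all genes. Tfcp2l1 was highest in Control replicate 2, at 60.9 CPM against 51.2 CPM in Control replicate 1. The sums of primitive streak markers did not follow this pattern. They were 118 and 63.5 CPM in Trim33-deficient and 73.2 and 89.6 CPM in Control replicates 1 and 2. Foxh1 and Fgf8 weighed most in the sum of Trim33-deficient replicate 1, at 46.4 and 34.1 CPM there. In Control replicate 1 these 2 genes were at 11.4 and 16.7 CPM. Of the 9 streak markers tested, 4 (T, Mixl1, Eomes and Fgf4) were highest in Control replicate 1, against 31.7% of all genes tested. Cardiomyocyte markers summed to 1498 and 307 CPM in Trim33-deficient replicates 1 and 2, against 189 and 456 CPM in Control replicates 1 and 2. Of the 9 tested, 0 were highest in Control replicate 1. Visceral endoderm markers summed to 106 and 112 CPM in Trim33-deficient and 1050 and 1231 CPM in Control replicates 1 and 2. Of these 10 markers, 3 were highest in Control replicate 1. DESeq2 called 10 of 10 lower, against 0.702% of all genes, but the list was chosen with earlier results of these data known. No marker of these 5 lists was at 0 in all 4 libraries. Their part in the levels of the WNT feedback genes was not tested.

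The promoter sequences are shown because TCF and LEF factors read a short DNA motif. RefSeq (GRCm38.p6) promoters were available for 7 of the 10 genes, as 12 promoters. The 250 bases before each start were searched on both strands for the TCF motif written as CTTTGAA or CTTTGAT, which 7.48% of 32851 mouse promoters hold. The motif was found in 2 of the 12, those of Sp5 and Dkk1, and is in capitals below. In Sp5 (chr2:70474673-70474922, plus strand) it begins 104 bases before the start, and in Dkk1 (chr19:30549497-30549746, minus strand) 117 bases before it. Axin2 (chr11:108920099-108920348, plus strand) is given beside them as the usual readout, with no match in this window, which says nothing of sites elsewhere in the gene.
Sp5: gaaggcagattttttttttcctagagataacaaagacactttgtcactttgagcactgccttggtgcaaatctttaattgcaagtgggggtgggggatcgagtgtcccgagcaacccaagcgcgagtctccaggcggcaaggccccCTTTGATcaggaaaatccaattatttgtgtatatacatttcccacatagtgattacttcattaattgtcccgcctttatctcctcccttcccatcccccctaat
Dkk1: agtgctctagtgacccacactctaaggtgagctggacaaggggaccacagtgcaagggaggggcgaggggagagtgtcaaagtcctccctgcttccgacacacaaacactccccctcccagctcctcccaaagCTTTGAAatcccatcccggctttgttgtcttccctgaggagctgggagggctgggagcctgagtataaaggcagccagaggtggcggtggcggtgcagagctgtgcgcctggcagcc
Axin2: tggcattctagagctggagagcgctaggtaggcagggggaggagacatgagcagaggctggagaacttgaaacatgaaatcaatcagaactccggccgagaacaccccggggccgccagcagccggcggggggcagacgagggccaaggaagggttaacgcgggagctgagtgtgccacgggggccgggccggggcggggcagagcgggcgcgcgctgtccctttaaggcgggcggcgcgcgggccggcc
Sp5 had differences of −0.82 and −0.68 within numbers 1 and 2, where Dkk1 had 0.30 and −0.94, and Axin2 −1.21 and −0.36, on the log2 scale.

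The rest of the pathway was described through 6 lists of other genes. The edgeR quasi-likelihood test called 0 genes in any of them in either direction, and DESeq2 called 1, Cd44, as higher. The ligand list, WNT genes with the secretion genes Porcn and Wls, was the one set lowest: 14 of 18 tested genes lay below 0, with a median log2 fold change of −0.67. Control replicate 1 was the highest library for 12 of the 18, against 31.7% of all genes tested, and the median was −0.02 without that library. The median was −1.02 without Control replicate 2, −0.78 without Trim33-deficient replicate 1 and −0.54 without Trim33-deficient replicate 2. Wnt2b had the smallest p there, with a log2 fold change of −1.48 (SE 0.49) and 2.38 and 2.22 CPM in Trim33-deficient replicates 1 and 2, against 8.81 and 4.00 CPM in Control replicates 1 and 2. Porcn, the enzyme that adds the lipid to WNT ligands, was at −0.57 (SE 0.20) and Wnt3, a ligand of the primitive streak, at −0.75 (SE 0.40). Their edgeR adjusted p values were 0.609, 0.627 and 0.678.

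Receptors and R-spondins were split, with 9 of 17 above 0 and a median log2 fold change of 0.10, which was −0.01 without Control replicate 1. That median was 0.18 without Control replicate 2, 0.09 without Trim33-deficient replicate 1 and 0.12 without Trim33-deficient replicate 2. Fzd9 had a log2 fold change of −1.76 (SE 0.56) and the R-spondin gene Rspo1 −1.25 (SE 0.54). Rspo1 was at 12.9 and 15.7 CPM in Trim33-deficient replicates 1 and 2, against 50.6 and 17.2 CPM in Control replicates 1 and 2, so Control replicate 1 was the high library there also. Fzd6 was at 0.74 (SE 0.27), with 30.1 and 41.0 CPM in Trim33-deficient replicates 1 and 2, against 17.2 and 25.5 CPM in Control replicates 1 and 2. Of the secreted and membrane antagonists, 8 of 14 lay below 0, with a median of −0.25 that was 0.02 without Control replicate 1, 0.03 without Trim33-deficient replicate 2 and −0.74 without Trim33-deficient replicate 1. Apcdd1, a membrane inhibitor of WNT reception that is itself a WNT target, was at 54.6 and 41.4 CPM in Trim33-deficient replicates 1 and 2, against 132 and 69.0 CPM in Control replicates 1 and 2. Its log2 fold change was −1.06 (SE 0.35, edgeR quasi-likelihood adjusted p = 0.608, DESeq2 adjusted p = 0.239). The inhibitor genes Kremen1 and Draxin were at −0.40 (SE 0.24) and −1.41 (SE 0.84). Draxin was high in 1 library, at 11.6 and 8.71 CPM in Trim33-deficient replicates 1 and 2, against 46.2 and 7.62 CPM in Control replicates 1 and 2, and its log2 difference within number 2 was 0.19. Kremen1 too was high in Control replicate 1, with 70.9 and 68.7 CPM in Trim33-deficient replicates 1 and 2, against 113 and 71.6 CPM in Control replicates 1 and 2.

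Values of the core transducers lay close to 0. All 17 cytoplasmic genes were tested, their median was 0.02, and Ctnnb1, which encodes beta-catenin, was at 1608 and 1570.2 CPM in Trim33-deficient replicates 1 and 2, against 1472 and 1506 CPM in Control replicates 1 and 2. The 95% interval of its log2 fold change of 0.09 was −0.26 to 0.45. The smallest p values belonged to the Dishevelled gene Dvl1 at −0.28 (SE 0.12), the kinase gene Gsk3b at 0.17 (SE 0.10) and Amer1 at 0.38 (SE 0.42). In the nucleus, 9 of 15 genes lay above 0 with a median of 0.03. The corepressor genes Ctbp2, Aes and Ctbp1 had log2 fold changes of 0.24 (SE 0.11), 0.21 (SE 0.12) and 0.16 (SE 0.11). The remaining TCF genes, Tcf7l1 and Tcf7l2, singled out after their values were seen, were at 0.08 (SE 0.10) and −0.05 (SE 0.15), each nearer to 0 than Lef1.

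Other genes known as WNT targets gave no common direction, with 9 of 15 tested above 0 and a median log2 fold change of 0.11. That median was 0.0024 without Control replicate 1, −0.02 without Control replicate 2, −0.03 without Trim33-deficient replicate 1 and 0.14 without Trim33-deficient replicate 2. Cd44, a cell surface receptor for hyaluronan, was at 107 and 127 CPM in Trim33-deficient replicates 1 and 2, against 43.5 and 56.4 CPM in Control replicates 1 and 2. It rose by DESeq2 (adjusted p = 0.0002) but edgeR did not call it (adjusted p = 0.318), and its log2 fold change was 1.23 (SE 0.18). The authors' deposited table lists it with a log2 fold change of 1.24 and an adjusted p of 0.000342. Tnfrsf19, a receptor gene also known as Troy, was at −0.89 (SE 0.28), with 66.2 and 43.7 CPM in Trim33-deficient replicates 1 and 2, against 120.5 and 83.5 CPM in Control replicates 1 and 2. Tbx6, a gene of presomitic mesoderm, was at −1.74 (SE 0.55) but on 6 and 7 counts in Trim33-deficient replicates 1 and 2, against 27 and 14 in Control replicates 1 and 2. The streak gene T, one of the primitive streak markers and also singled out after its values were seen, had 39 and 26 counts in Trim33-deficient and 84 and 24 counts in Control replicates 1 and 2.

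**Figure D4:**
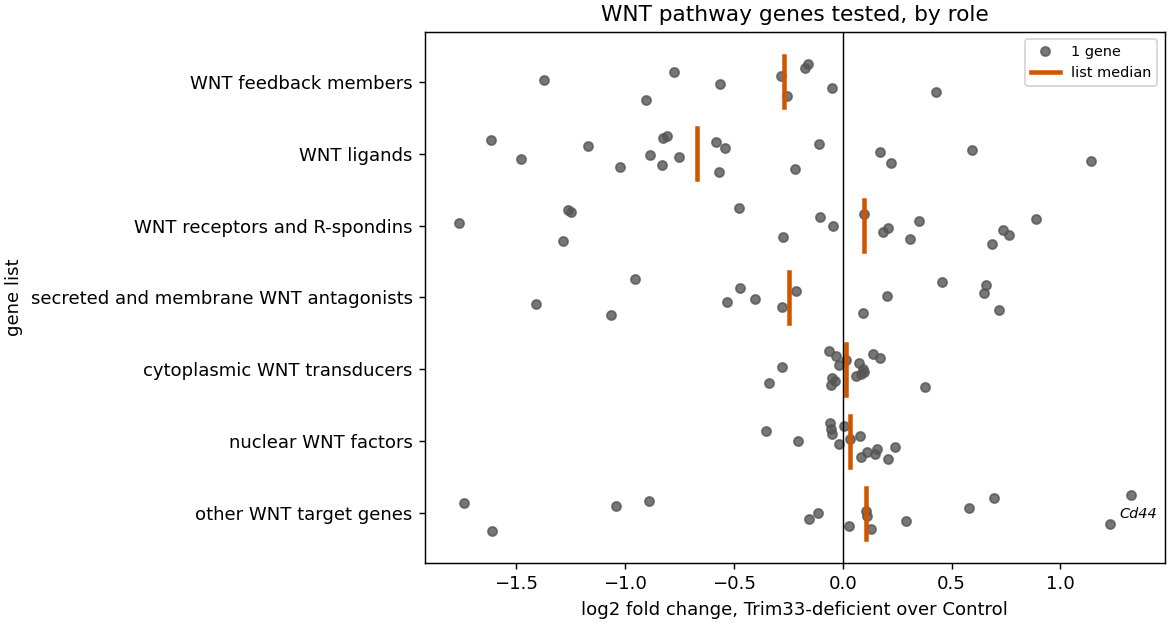
Fitted log2 fold changes, Trim33-deficient over Control, of the tested genes of the WNT pathway, grouped by role. Each grey point is 1 gene, spread in height by name within its list, orange bars are list medians, and Cd44 is the gene that DESeq2 called. Medians run from −0.67 for ligands to 0.11 for other targets, and both move to near 0 without Control replicate 1, while cytoplasmic and nuclear genes are packed around 0.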

How the data were processed

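Per the labels, total RNA was taken from embryoid bodies and made into libraries by standard Illumina protocols. The authors deposited 1 file per library, of raw read counts by gene symbol. Tools named in the submitters' processing notes are HTSeq, STAR and DESeq, and the build is mm9, with no versions or roles. Lines without a gene were left aside: reads assigned to no feature made up 55.5% to 56.0% of the reads in the files and ambiguous reads at most 0.200%. For each gene it lists, the authors' deposited table holds a mean normalised signal, the log2 fold change and both raw and adjusted p-values, per the file headers.

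Counts were filtered with filterByExpr, scaled by TMM and tested two-sided by quasi-likelihood in edgeR 4.0.16 under R 4.3.3, with p adjusted by Benjamini-Hochberg over all genes tested and a threshold of 0.05. Standard errors were derived from the fold change and its F statistic, and 95% intervals used the total degrees of freedom of that fit. Differences within numbers were taken from log2 CPM after adding a prior count of 2. The other settings tried were limma 3.58.1 voom, edgeR's likelihood ratio test, DESeq2 1.42.0, other scalings and filters, the replicate number as a block and each library left out. A lone library of a group is then assumed to vary like the other group. The fits were checked on simulated counts with known changes, which enter no result.

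The extract protocol in the labels mentions independent pairs, and numbers were taken to mark them. Deviations of same-numbered libraries from their group means correlated over genes, with a Pearson coefficient of 0.236 and a Spearman coefficient of 0.207. No library was a second deposit of its replicate, with a chi-square per degree of freedom of 24.3 in Trim33-deficient and 35.7 in Control libraries. Members and gene lists were chosen with earlier results of these data known. Named genes were the 10 members, Trim33, Ctnnb1, the 3 with the smallest edgeR p in each other pathway list, genes of those lists called by edgeR or DESeq2, and the 5 nearest to Axin2. Tcf7l1, Tcf7l2, Tfcp2l1 and the streak markers T, Mixl1, Eomes, Fgf4, Foxh1 and Fgf8 were named outside this rule, after their values were seen.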

Additional observations from a re-analysis of the deposited data

How the results depend on the processing

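Of the 10 members 0 passed under the settings tried, except that 2 (Axin2 and Notum) passed in DESeq2 without Control replicate 2. The DESeq2 fits with a library left out were chosen after seeing the data. Over all genes, the edgeR quasi-likelihood test called 0 higher and 2 lower. DESeq2 called 23 and 113, the likelihood ratio test 29 and 140, limma voom 0 lower, and edgeR without a low-count filter 14 lower. With libraries left out, edgeR called 0 to 25 higher and 0 to 66 lower. DESeq2 called 5 and 42 without Trim33-deficient replicate 1, 16 and 35 without Trim33-deficient replicate 2, 32 and 55 without Control replicate 1, and 390 and 286 without Control replicate 2 (higher first, then lower). Among the other pathway genes, 0 passed in the main analysis, 1 by DESeq2 and 1 by the likelihood ratio test, 0 to 3 in edgeR with libraries left out, and 25 in DESeq2 without Control replicate 2. These counts do not separate higher from lower. The lists held 18 tested ligand genes, 17 receptor, 14 antagonist, 17 cytoplasmic, 15 nuclear and 15 other target genes. Without Control replicate 2, the only Control library left was Control replicate 1, which stood apart from the rest. No conclusion on the pathway was therefore drawn from the 25. With the replicate block 0 members passed, with edgeR adjusted p from 0.297 to 0.907, and it changed no call of a member. The block gave 0 higher and 2 lower over all genes.

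Signs turned in single fits. Tcf7 was at 0.0038 in DESeq2 without Control replicate 1. Without Trim33-deficient replicate 2, Dkk1 was at 0.13 with edgeR and 0.12 with DESeq2, Znrf3 at 0.013 and 0.011, and Lgr5 at 0.48 with both. Without Control replicate 1, Lgr5 was at 0.30 with both. Over the edgeR fits with libraries left out, the lowest values were −0.77 for Dkk1, −0.35 for Znrf3 and −0.90 for Lgr5. The cause was not tested. The scalings moved the median of all genes by less than 0.1. The median of the members ran from −0.70 without Trim33-deficient replicate 1 to −0.02 without Trim33-deficient replicate 2. Depth limits Rnf43, Lgr5 and Notum most, which had under 100 counts in most libraries.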
